A study of Homo sapiens with 18 samples.

Results

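The genes described here are 38 genes of endocytosis and particle uptake, and they were measured in A549 cells exposed to Ludox silica nanoparticles (NPs). They were taken as all probes whose gene name in the scanner files is 1 of the 38 symbols, which gave 71 of the 41000 distinct probes of the array and 38 of its 30815 gene names. After the filter on missing values 62 of these probes were kept, and they covered 35 of the 38 genes. The remaining genes were AMPH, which encodes the membrane-bending protein amphiphysin, and the macrophage scavenger receptors MSR1 and MARCO. No AMPH probe was well above background on any array, the MSR1 probes were so on at most 1 of 18 arrays, and the MARCO probe was so on 3.

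Cells take up particles by several routes that share machinery. In clathrin-mediated uptake the adaptor AP-2 and its partners gather cargo under a clathrin coat, membrane-bending proteins shape the pit and dynamin cuts it free, whereas caveolae and flotillin domains form without clathrin. Actin-driven ruffling under ARF6, RAC1, CDC42 and PAK1 takes up larger volumes, and cargo then passes through early endosomes marked by RAB5 and EEA1 to recycling endosomes (RAB11A) or to late endosomes and lysosomes (RAB7A).

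A549 is an established human lung adenocarcinoma line of epithelial cells, and all groups were grown in the same way. Cells received SM30 NPs of 9 nm or AS30 NPs of 18 nm for 2 h in medium without serum, at the same dose according to the methods of the study. They then recovered in complete medium for 3 h (both particles) or 22 h (AS30 alone). Each of these 3 exposures had a control group that went through the same steps without NPs, and every group had 3 biological replicates, lettered A to C. In a population of cells, fewer cells that use a gene and less of its RNA per cell cannot be told apart. The values are one-colour array intensities after quantile normalization, they are comparable between arrays for a given probe and are not compared between probes, and ratios are given on the log2 scale as treated over the control of the same letter.

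Between 51.9% and 72.4% of the spots were well above background on an array. At 3 h after AS30 this was 62.55% to 67.09% in treated arrays and 52.37% to 61.88% in controls. The ranges were 56.85% to 67.02% against 51.86% to 58.4% at 22 h, and 68.96% to 72.42% against 65.5% to 69.94% for SM30. The part of these differences in the ratios of dim probes was not tested. Of the 35 measured genes, 34 had a main probe, the brightest of the gene, well above background on all 18 arrays. The exception was SYNJ1, with 9 of 18. The epithelial markers KRT7, KRT8, KRT18, KRT19, EPCAM and CDH1 were well above background on all 18 arrays. This held for 1 of 7 leukocyte markers (CD14), 1 of 6 fibroblast markers (COL1A1) and 0 of 5 endothelial markers. The other leukocyte markers were so on 16 (ITGAM), 9 (CSF1R), 6 (LYZ), 5 (PTPRC), 1 (CD163) and 0 (AIF1) of 18 arrays. For the other fibroblast markers the numbers were 7 (COL1A2), 6 (LUM), 5 (PDGFRA), 1 (DCN) and 0 (COL3A1). The endothelial markers had 11 (VWF), 2 (KDR), 1 (CDH5), 0 (PECAM1) and 0 (TEK). The summed fibroblast markers were higher in treated cells at 3 h, with 238 to 263 against 184 to 228 after SM30 and 272 to 367 against 170 to 229 after AS30, and their part in the results below was not tested. Median signals were 136.2 for COL1A1 and 6.223 to 18.71 for the other fibroblast markers. Of 3 fibroblast markers tested, 3 had ratios above 0 after SM30 and 2 at 3 h after AS30, where the lowest was -0.549. The other sums overlapped between treated cells and controls in each exposure, though 3 single markers passed the threshold of an adjusted p of 0.05. The leukocyte marker CSF1R did so after SM30 (1.41, adjusted p = 0.00859) and, from 1 measured pair, at 22 h after AS30 (2.01, adjusted p = 0.0294). The epithelial marker KRT19 (1.21, adjusted p = 0.0234) and, from 1 pair, the fibroblast marker LUM (-3.43, adjusted p = 0.0307) did so at 22 h, and their part in the results was not tested either. The arrays lay on 5 slides. Treated arrays and controls of AS30 at 3 h were on different slides, so that slide and exposure cannot be told apart there except through the 22 h controls that shared those slides. With SM30, treated array A shared slide 1 with the controls, and treated arrays B and C lay on slide 2. The 22 h AS30 arrays lay on slide 5 with control C, while controls A and B lay on slides 4 and 3. Slide and exposure can thus be told apart only in part in these exposures too.

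At the level of genes, 0 of the 35 members passed the threshold of an adjusted p of 0.05 after any exposure. The share of all genes tested that passed it was 7.67% after SM30, 2.62% after AS30 at 3 h and 3.84% after AS30 at 22 h. These shares depended on single replicates, with 1.04% to 9.73%, 0.261% to 11.2% and 0.00966% to 5.2% when 1 pair was left out. An unadjusted p under 0.05 was found for 5 members after SM30, 8 after AS30 at 3 h and 10 after AS30 at 22 h, which was 14.3%, 22.9% and 28.6% of the members beside 25.5%, 25% and 23.7% of all genes. The median log2 ratio of the members was 0.00, 0.05 and 0.01 in this order, and over all genes it was -0.07, 0.02 and -0.01. The sizes of change had a median absolute log2 ratio of 0.14, 0.21 and 0.17 among members and 0.26, 0.26 and 0.25 among all genes. The median SE was 0.15 among members and 0.18 among all genes in each exposure, and all genes were not matched to the members by signal. After SM30, the 95% interval of 34 of 35 members, all but RAB7A, lay within 1 log2 unit of no change, which held for 70.4% of all genes. After AS30 this was 34 of 35 members at 3 h and 31 of 35 at 22 h, beside 69.8% and 69.7% of all genes.

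Treated arrays were all above the controls for 8 of 35 members after SM30, 6 of 34 at 3 h and 6 of 34 at 22 h after AS30, beside 18%, 13.4% and 13% of all genes. They were all below for 3, 4 and 3 members, beside 25.3%, 11.3% and 11.5% of all genes. RAB7A, RAB11A and PAK1 were above in each exposure, and the share of all genes above in all 3 was not determined.

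**Figure D1:**
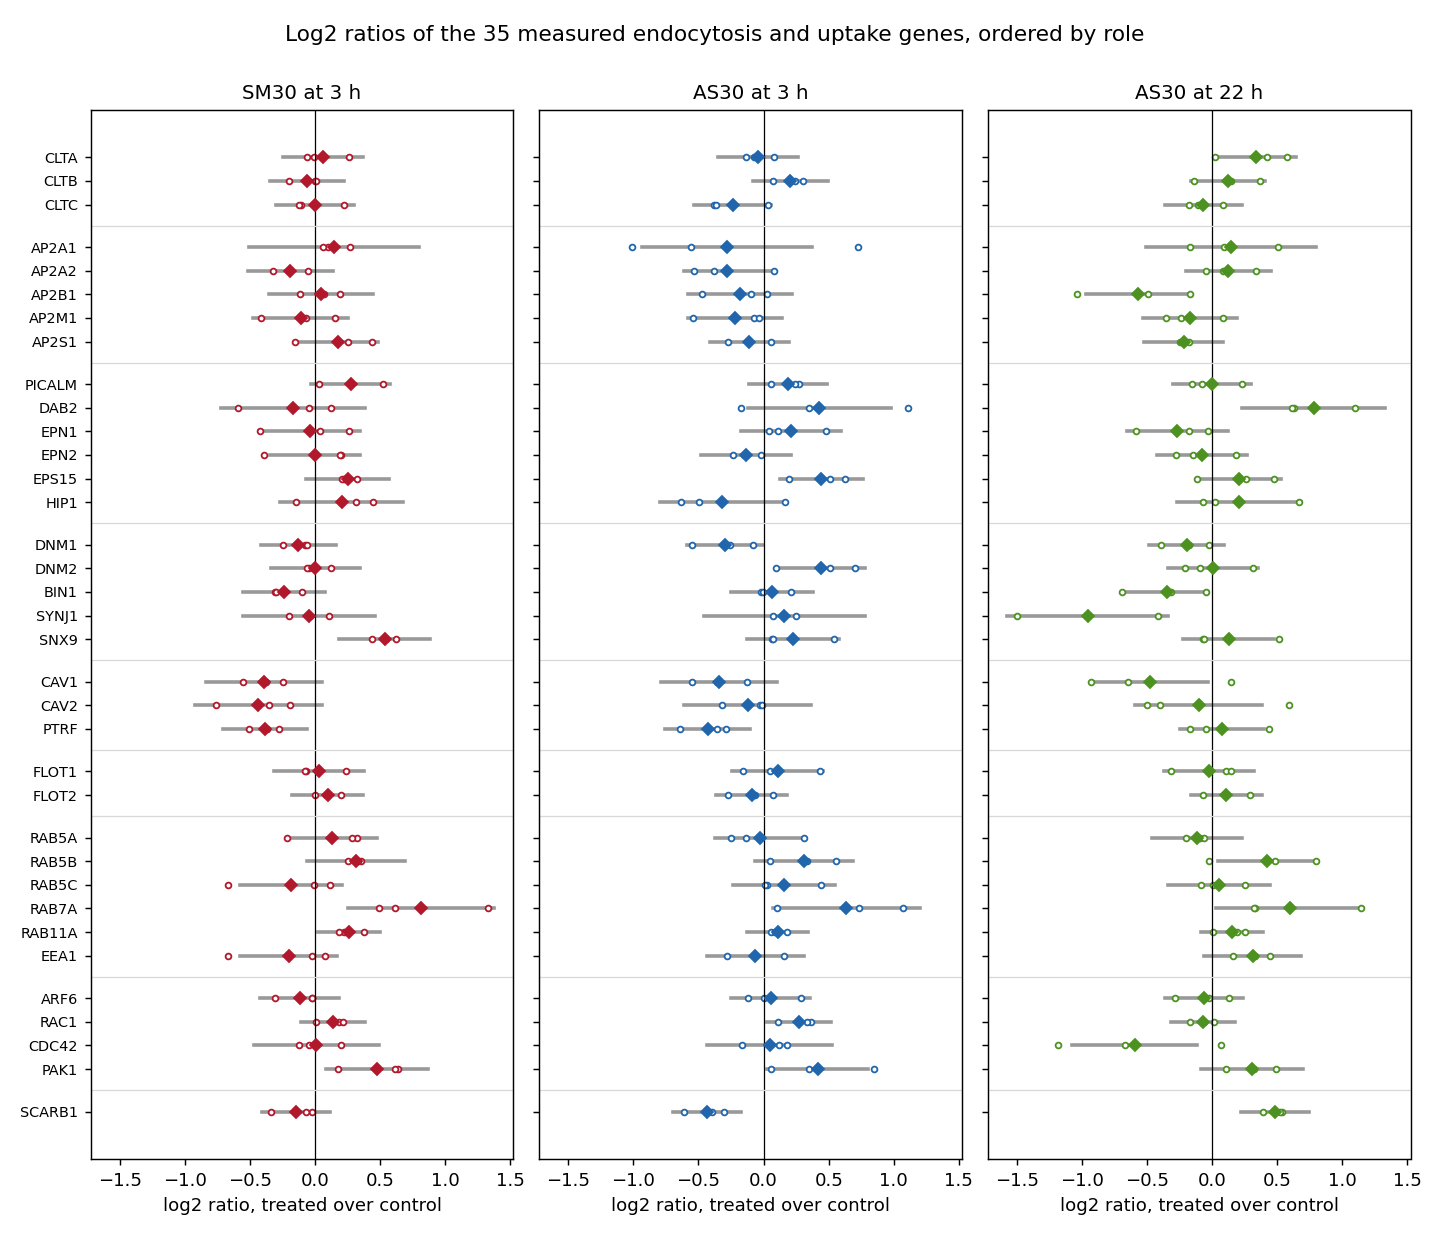
Log2 ratios of treated over control arrays (horizontal axis) for the 35 measured genes, grouped by role, in 1 panel per exposure. Open circles are the 3 same-letter ratios, diamonds the mean and grey bars the 95% interval of the limma fit; RAB7A lies to the right of 0 in every panel, at 0.81, 0.63 and 0.60. The value of SYNJ1 at 22 h comes from arrays not well above background.

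**Figure D2:**
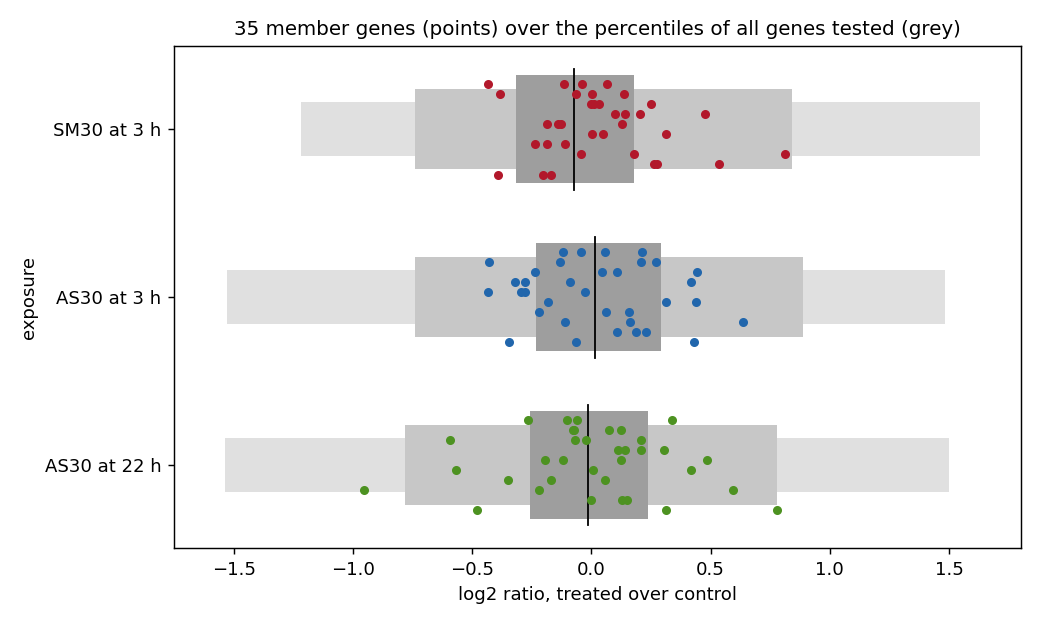
Mean log2 ratios of the 35 members (points, spread vertically so that they can be seen) over the distribution of all genes tested, with grey boxes from the 25th to the 75th, the 5th to the 95th and the 1st to the 99th percentile and a black line at the median. After SM30 the members lie between -0.44 and 0.81, within the 5th and 95th percentiles of -0.74 and 0.84, and the lowest point at 22 h is SYNJ1, which was not well above background there.

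SNX9 was the sole member with a probe past the threshold, after SM30. It encodes a sorting nexin that bends membrane and recruits dynamin and actin regulators to the pit. Its dimmer probe read 218, 203 and 196 in the SM30 cells and 121, 113 and 121 in their controls, and its brighter probe read 2676, 2602 and 2664 against 1736, 1782 and 1971. On both probes every treated array lay above every control. The dimmer probe rose by 0.80 ± 0.18 on the log2 scale (SE, adjusted p = 0.0363), or 1.74-fold, and it was the sole member probe of 62 past the threshold in any of the 5 comparisons, while 7.49% of all probes passed after SM30. The brighter probe gave 0.54 ± 0.15 (adjusted p = 0.0732), so the call did not hold for the probe that stands for the gene. With the probes of a gene averaged the ratio was 0.67 (adjusted p = 0.0416). With slide as a fixed block, where slide 1 with 1 treated array and the 3 controls gives the value, the ratios were 0.88 (adjusted p = 0.229) and 0.55, so the call was lost there. With normexp background correction the ratios were smaller, at 0.35 (adjusted p = 0.0162) on the dimmer and 0.34 (adjusted p = 0.201) on the brighter probe. Leaving out replicate A, B or C of the SM30 pair raised the adjusted p of the dimmer probe to 0.134, 0.173 and 0.15 with ratios of 0.77 to 0.85, and leaving out replicate B of the AS30 pair at 3 h, which enters through the shared spread, raised it to 0.0516.

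After AS30 the dimmer SNX9 probe read 161, 193 and 152 at 3 h against 128, 120 and 82.3 in the controls. At 22 h it read 132, 80.8 and 156 against 71.7, 80.0 and 88.2. The groups did not overlap at 3 h, whereas at 22 h replicate B lay among the controls. The ratios were 0.63 ± 0.18 (adjusted p = 0.0958) and 0.57 ± 0.18 (adjusted p = 0.114), and without replicate B the 22 h ratio was 0.85 (adjusted p = 0.0327). With normexp background correction they were 0.19 and 0.15. This probe was well above background on 15 of 18 arrays, with 1 of 3 controls at 22 h among those that were. The brighter probe read 1902, 2093 and 1706 against 1817, 1990 and 1171 at 3 h, and 1276, 1003 and 1559 against 1336, 1049 and 1093 at 22 h. Its groups overlapped at both times, with ratios of 0.23 and 0.13. The probes lie on chromosome 6 of build hg18 at 158285313 to 158285372 (brighter) and within 158250786 to 158250962 (dimmer), the latter a span longer than the probe.

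RAB7A, the small GTPase that directs cargo to late endosomes and lysosomes, had the largest mean ratio of the members by main probe in both 3 h exposures. Its single probe, on chromosome 3 at 130008055 to 130008114 of hg18, read 1594, 1846 and 1635 after SM30 against 1133, 1206 and 650 in the controls. With AS30 the signals were 2546, 2937 and 2433 against 1533, 1401 and 2263 at 3 h, and 2925, 2191 and 2391 against 1324, 1747 and 1916 at 22 h. In all 3 exposures every treated array lay above every control. Control C of SM30 was the lowest of its group, and control C of AS30 at 3 h lay nearest to the treated arrays. The ratios were 0.81 ± 0.25 (adjusted p = 0.0846), 0.63 ± 0.25 (adjusted p = 0.166) and 0.60 ± 0.25 (adjusted p = 0.197), or 1.76-, 1.55- and 1.51-fold. None passed the threshold with pairing by letter, and without it the SM30 ratio did (adjusted p = 0.0437). With slide as a fixed block the ratios were 0.73, 0.23 and 0.38, which lowered both AS30 values by over 1.5 times. So did leaving out 1 pair, with 0.42 at 3 h without replicate B and 0.32 at 22 h without replicate A.

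The promoters of SNX9 and RAB7A are shown because these genes had the largest ratios after SM30. They come from RefSeq on build GRCh38.p14, run from 250 bases before to 50 bases after the annotated start, and are read along the sense strand. Capitals mark the GC box GGGCGG on either strand, which occurs 4 times in SNX9 (chr6:157822996-157823295) and 1 time in RAB7A (chr3:128725933-128726232).
SNX9: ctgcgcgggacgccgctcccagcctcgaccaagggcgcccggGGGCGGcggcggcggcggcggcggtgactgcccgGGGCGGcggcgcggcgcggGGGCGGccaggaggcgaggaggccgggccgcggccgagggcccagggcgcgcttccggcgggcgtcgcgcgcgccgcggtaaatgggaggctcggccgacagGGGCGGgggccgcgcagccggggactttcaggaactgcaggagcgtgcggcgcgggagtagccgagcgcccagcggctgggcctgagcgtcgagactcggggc
RAB7A: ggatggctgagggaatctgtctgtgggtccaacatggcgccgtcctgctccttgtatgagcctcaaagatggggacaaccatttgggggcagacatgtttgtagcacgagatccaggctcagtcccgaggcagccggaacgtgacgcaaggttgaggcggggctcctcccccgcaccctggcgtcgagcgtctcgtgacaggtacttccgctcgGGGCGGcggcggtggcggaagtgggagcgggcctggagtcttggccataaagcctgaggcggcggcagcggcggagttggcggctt

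A promoter was found for 34 of the 38 members. The GC box was present in 31 of these 34 genes (91.2%), beside 48.3% of the 27305 genes with a promoter in the same table. The AP-1 motif TGANTCA was present in FLOT2 and RAB5B (5.88%, beside 9.37% of all), and the E-box CACGTG in PICALM and RAB5A (5.88%, beside 8.77%). Neither of these motifs occurs in the SNX9 and RAB7A windows. A match of letters describes the sequence alone.

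Among the other endosome genes, RAB11A, which serves recycling, read 9296, 9334 and 8849 after SM30 against 7173, 7994 and 7775 in the controls, with no overlap and a ratio of 0.26 ± 0.10 (adjusted p = 0.163). After AS30 it read 6458, 7039 and 6312 at 3 h against 6216, 6207 and 5941, and 5979, 6022 and 6594 at 22 h against 5963, 5047 and 5768. These groups did not overlap either, by small margins, with ratios of 0.11 and 0.15, and its dimmer probe gave 0.22, 0.28 and 0.05. RAB5A, which governs fusion of early endosomes, read 3905, 3907 and 2874 after SM30 against 3115, 3213 and 3344. Its AS30 signals were 2634, 2712 and 2546 at 3 h against 2896, 3228 and 2048, and 2224, 2010 and 2068 at 22 h against 2554, 2140 and 2160. All 3 pairs of groups overlapped. RAB5A had ratios of 0.13, -0.02 and -0.12 on this brighter probe and 0.19, 0.36 and 0.01 on its dimmer probe, none past the threshold. Its relative RAB5B had ratios of 0.31, 0.31 and 0.42 on the brighter probe, none past the threshold, while the dimmer probe gave -0.11, 0.55 and, from 1 pair of arrays, -0.32. The brighter probe of RAB5C lay between -0.19 and 0.16. The tether EEA1, which docks early endosomes, had probes that differed after SM30, with -0.20 on the brighter and 0.69 ± 0.18 (adjusted p = 0.0565) on the dimmer, which read 165, 187 and 180 against 125, 102 and 103.

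**Figure D3:**
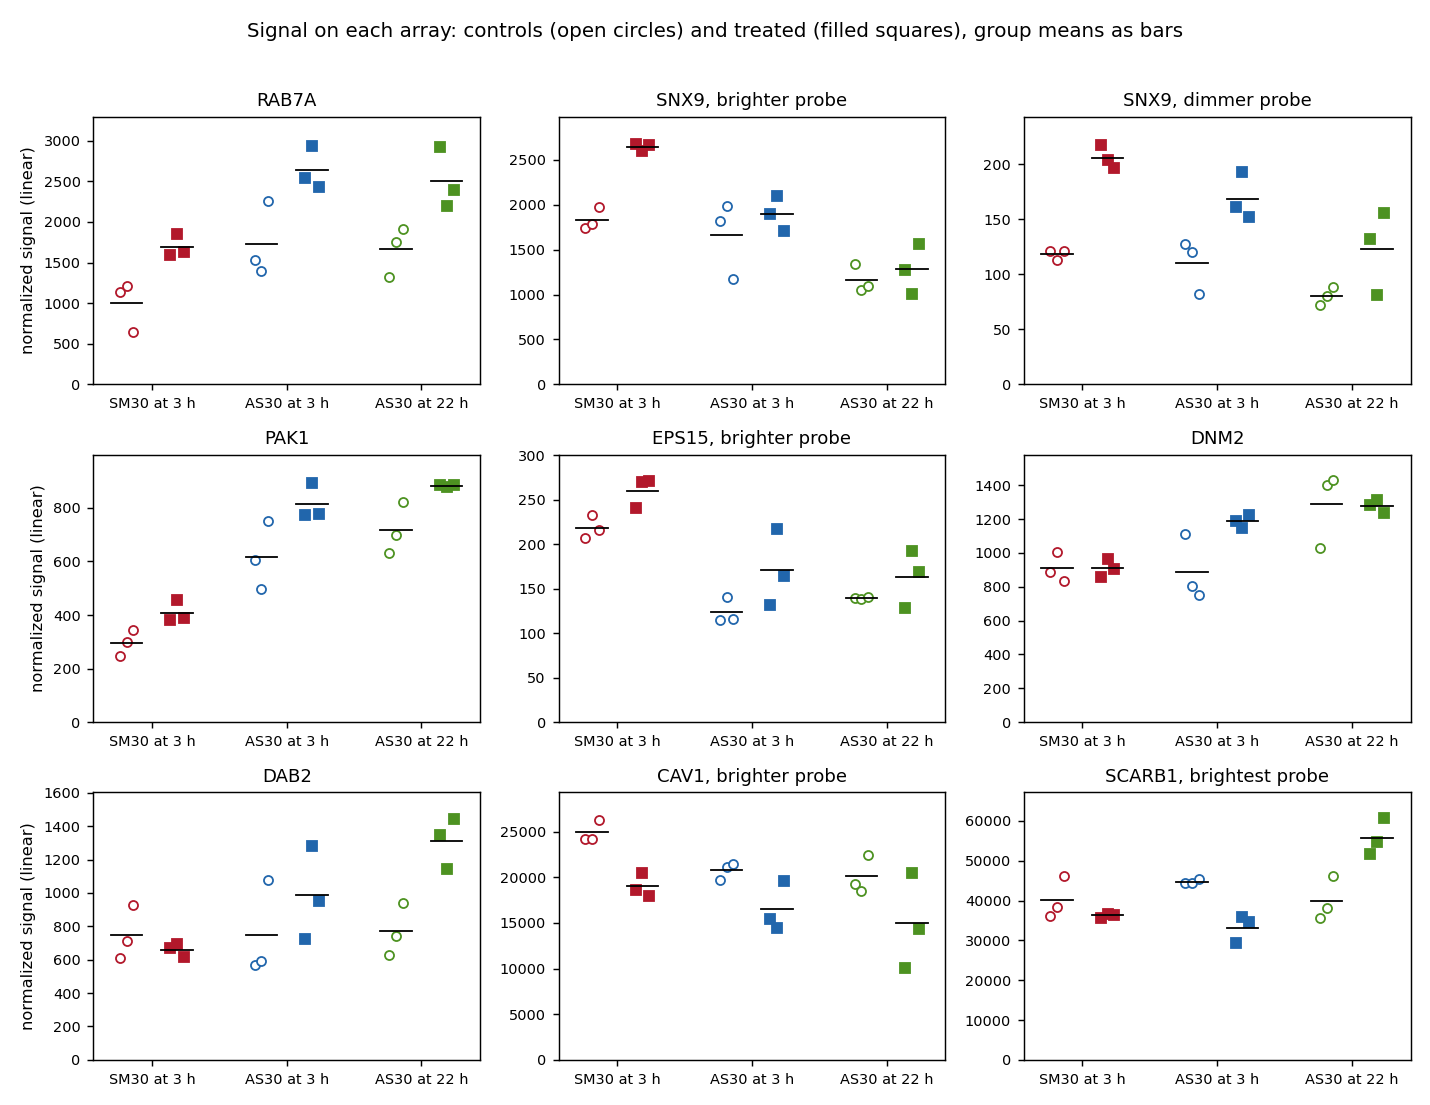
Normalized signal (linear scale, from 0) of 9 member probes on each of the 18 arrays, with controls as open circles, treated cells as filled squares and group means as black bars. SNX9 after SM30, RAB7A in all exposures and SCARB1 after AS30 show groups that do not overlap, with SCARB1 below the controls at 3 h and above them at 22 h.

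SCARB1, a scavenger receptor that takes up lipid from high-density lipoprotein, was the sole scavenger receptor of the members with a measured probe. Its brightest probe, on chromosome 12 at 123828178 to 123828237 of hg18, read 29227, 35868 and 34544 at 3 h after AS30 against 44507, 44340 and 45364 in the controls. At 22 h it read 51688, 54589 and 60612 against 35625, 38000 and 46248. After SM30 the signals were 35674, 36698 and 36447 against 36135, 38474 and 46085. All treated arrays thus lay below the controls at 3 h after AS30 and above them at 22 h, and the groups overlapped after SM30. The ratios were -0.44 ± 0.11 (adjusted p = 0.0804) at 3 h, 0.48 ± 0.11 (adjusted p = 0.0567) at 22 h and -0.14 ± 0.11 (adjusted p = 0.479) after SM30. The difference between 22 h and 3 h was 0.92 with a 95% interval of 0.55 to 1.29, which has an unadjusted p of 0.000373 and an adjusted p of 0.102, and 0.0385% of all genes passed in that comparison. The other SCARB1 probes gave -0.24 and -0.08 at 3 h and 0.47 and 0.37 at 22 h, with treated arrays all above controls at 22 h on both. Within slide 5, which holds the treated arrays and 1 control, the 22 h ratio of the brightest probe was 0.26, lower by over 1.5 times. With slide as a fixed block the 3 h ratio was -0.53 and the difference between the times 0.79, while the 3 h ratio was -0.22 with scaling to the 75th percentile and -0.25 with the probes of the gene averaged. The 22 h value passed the threshold in 4 of 19 alternatives, among them the fit without the pairing by letter (0.48, adjusted p = 0.0404), and the 3 h value and the difference in 1 each.

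The caveola genes were below their controls on most arrays after SM30. CAV1 and CAV2 encode the caveolins that build the coat, and PTRF (now CAVIN1) encodes the cavin that stabilizes it. The brighter CAV1 probe read 18617, 20455 and 17942 after SM30 against 24210, 24218 and 26314. After AS30 it read 15389, 14422 and 19626 at 3 h against 19698, 21089 and 21450, and 10107, 20453 and 14324 at 22 h against 19293, 18498 and 22447. Treated arrays were all below controls in both 3 h exposures, while at 22 h replicate B lay among the controls. The ratios were -0.39 ± 0.20, -0.34 ± 0.20 and -0.48 ± 0.20 with adjusted p of 0.252, 0.306 and 0.192, and the 22 h ratio was -0.79 (adjusted p = 0.0398) without replicate B and -0.25 (adjusted p = 0.642) without replicate A. The dimmer CAV1 probe gave -0.15, -0.35 and -0.53.

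All 3 caveola genes had non-overlapping groups below the controls after SM30 on their brighter probe, with ratios of -0.39 to -0.44, and they were the 3 members so placed (8.57%, beside 25.3% of all genes). The dimmer PTRF probe did not share this, with a ratio of 0.03 after SM30. At 3 h after AS30, PTRF gave -0.43 ± 0.14 (adjusted p = 0.125) and at 22 h 0.08. The dimmer CAV2 probe gave -0.61 ± 0.19 (adjusted p = 0.103) after SM30 and -0.89 ± 0.19 (adjusted p = 0.0588) at 3 h after AS30, where it read 138, 181 and 195 against 266, 358 and 327, with no overlap. On the brighter CAV2 probe the AS30 ratios were -0.12 and -0.10, so the probes differed in size. The flotillins, which mark clathrin-free domains of the membrane, had ratios between -0.09 and 0.11 on the brighter probes of FLOT1 and FLOT2. The dimmer FLOT1 probe gave -0.11, -0.14 and -0.16. The dimmer FLOT2 probe was well above background on 6 of 18 arrays. It gave 0.13 after SM30 and -1.64 at 3 h after AS30, from 2 pairs each, and -1.52 at 22 h, none past the threshold. FLOT1 read 2919, 3047 and 3072 after SM30 against 3056, 2586 and 3237, 4028, 4186 and 3891 at 3 h after AS30 against 3899, 3096 and 4341, and 5109, 4878 and 4607 at 22 h against 4740, 4418 and 5746.

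No gene of the clathrin coat passed the threshold. CLTC, the heavy chain, read 57279, 52597 and 57557 after SM30 against 49042, 56669 and 62517 in the controls. In the AS30 cells CLTC read 43569, 44677 and 47263 at 3 h against 56720, 57404 and 46248, and 48839, 43833 and 52119 at 22 h against 52669, 49588 and 49176. Its groups overlapped in all exposures, and the ratios were 0.00, -0.24 and -0.07. The light chain CLTA had its highest ratio at 22 h, 0.34 ± 0.13 (adjusted p = 0.183), with signals of 44941, 33169 and 39370 against 30170, 32697 and 29434 that did not overlap. The light chain CLTB lay between -0.06 and 0.21.

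The 5 genes of AP-2, the adaptor that joins cargo and membrane to clathrin, all had ratios below 0 on their brightest probes at 3 h after AS30, from -0.11 to -0.28, and none reached an unadjusted p of 0.05. The other probes did not share this direction for AP2A2 (0.06 and 0.01) and AP2B1 (0.03), and with slide as a fixed block AP2M1 gave 0.16. After SM30 they lay between -0.19 and 0.18. AP2M1, the subunit that binds cargo, read 2825, 3395 and 2306 after SM30 against 2966, 3053 and 3079. The AS30 arrays of AP2M1 read 4612, 4739 and 4740 at 3 h against 6728, 4988 and 4854, and 4969, 4788 and 4711 at 22 h against 5876, 4512 and 6014. At 3 h its treated arrays lay below the controls, with the widest gap in replicate A, and they overlapped otherwise, with ratios of -0.11, -0.22 and -0.17. AP2B1, the beta subunit, had the lowest ratio of the adaptor at 22 h, with 1813, 2190 and 2645 against 3727, 3085 and 2973. That ratio was -0.57 ± 0.18 (adjusted p = 0.107), the second AP2B1 probe gave -0.41 ± 0.12 (adjusted p = 0.0856), and both had treated arrays all below controls, as had AP2S1, the sigma subunit (-0.22). After SM30 the AP2B1 probes differed, at 0.05 and 0.39. AP2A1 had the widest interval of the adaptor. At 3 h after AS30 its ratio was -0.78 (adjusted p = 0.0437) without replicate C, -0.14 without A and 0.09 without B, so that the direction rested on single replicates.

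Of the cargo adaptors and coat accessory proteins, DAB2, which brings receptors into pits, had the largest ratio. It read 1345, 1145 and 1440 at 22 h after AS30 against 627, 742 and 942. At 3 h it read 725, 1282 and 952 against 569, 593 and 1075, and after SM30 667, 693 and 616 against 611, 715 and 926. The groups were separate at 22 h and overlapped at 3 h for both particles. The ratios were 0.78 ± 0.24 (adjusted p = 0.107), 0.43 ± 0.24 (adjusted p = 0.302) and -0.17 ± 0.24 (adjusted p = 0.707). Within slide 5 the 22 h ratio was 0.47, lower by over 1.5 times, and the 3 h ratio after AS30 was 0.09 without replicate B. EPS15, a scaffold of the pit rim, read 241, 270 and 271 after SM30 against 207, 233 and 216, with no overlap. After AS30 EPS15 read 132, 218 and 165 at 3 h against 115, 141 and 116, and 129, 193 and 169 at 22 h against 140, 139 and 141. Both AS30 sets overlapped. Its ratios were 0.25, 0.44 ± 0.14 (adjusted p = 0.114) and 0.21, with 0.17 at 3 h after AS30 under normexp background correction. Its dimmer probe gave 0.46, 0.55 and 0.31 with treated arrays all above controls in the 3 exposures, though at 22 h no control of it was well above background.

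PICALM, which binds membrane lipid and clathrin, read 669, 875 and 689 after SM30 against 555, 609 and 675. PICALM after AS30 read 709, 630 and 590 at 3 h against 588, 606 and 500, and 646, 581 and 755 at 22 h against 721, 613 and 642. The groups overlapped in each, and the ratios were 0.27, 0.19 and 0.00. The epsins EPN1 and EPN2, which curve membrane and bind ubiquitinated cargo, lay between -0.27 and 0.21. HIP1, which links coats to actin, lay between -0.32 and 0.21 on its brightest probe. Its other probes differed, with 0.01, -0.38 and -0.01 on 1 and -0.62, 0.105 and -0.57 on the other.

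In membrane bending, scission and uncoating, DNM2, the dynamin of non-neuronal cells, read 1190, 1147 and 1221 at 3 h after AS30 against 1113, 803 and 750. At 22 h it read 1284, 1315 and 1236 against 1031, 1402 and 1430, and after SM30 859, 967 and 906 against 889, 1008 and 832. The groups were separate at 3 h after AS30 alone, where the ratio was 0.44 ± 0.15 (adjusted p = 0.134), and the other ratios were 0.01 and 0.00. With slide as a fixed block the 3 h ratio was 0.00. DNM1, the dynamin known from neurons, had ratios of -0.13, -0.30 and -0.20. BIN1, an amphiphysin relative, had -0.24, 0.06 and -0.35, with -0.28, -0.07 and -0.37 on its dimmer probe. For SYNJ1, the lipid phosphatase that uncoats vesicles, no array at 22 h was well above background in either group, and no ratio is given there. Its ratios were -0.04 after SM30 and 0.16 at 3 h after AS30, the latter over 2 ratios, since control C was missing. There 1 control was well above background. The dimmer SYNJ1 probe gave -0.185 after SM30 and, from 2 pairs, -0.93 at 3 h after AS30 (adjusted p = 0.128). In the latter exposure 0 treated arrays and 0 controls of that probe were well above background.

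PAK1, a kinase under RAC1 and CDC42 that drives ruffling, was above its controls on all arrays in the 3 exposures. It read 382, 455 and 388 after SM30 against 246, 298 and 342. PAK1 after AS30 read 773, 893 and 779 at 3 h against 607, 497 and 751, and 886, 877 and 885 at 22 h against 631, 701 and 822. The ratios were 0.48 ± 0.17 (adjusted p = 0.129), 0.42 ± 0.17 (adjusted p = 0.181) and 0.31 ± 0.17 (adjusted p = 0.322). The 3 h ratio after AS30 was 0.20 without replicate B and 0.27 with slide as a fixed block, and the 22 h ratio was 0.10 with slide as a fixed block. With normexp background correction the ratios were 0.30, 0.24 and 0.16.

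RAC1, the GTPase of lamellipodia, read 14753, 15652 and 14061 after SM30 against 13001, 13450 and 13970. At 3 h after AS30 it read 15257, 13865 and 13323 against 11825, 10995 and 12353, and at 22 h 10952, 11162 and 12573 against 11441, 12520 and 12468. The groups were separate in both 3 h exposures, with ratios of 0.14 and 0.27 ± 0.11 (adjusted p = 0.173), and at 22 h the ratio was -0.07. The other RAC1 probes gave 0.28 and 0.15 after SM30 and 0.11 and 0.04 at 3 h after AS30.

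CDC42, the GTPase of filopodia, had probes that disagreed. Its brightest probe read 12520, 10833 and 11122 after SM30 against 10921, 11201 and 12097, and 6945, 8892 and 7527 at 3 h after AS30 against 7778, 8171 and 6648. At 22 h it read 3815, 3869 and 6164 against 8670, 6140 and 5880, a ratio of -0.59 ± 0.21 (adjusted p = 0.145), which was -0.30 without replicate A and -0.39 with slide as a fixed block. The groups overlapped in each. The other 3 probes gave 0.31 to 0.69 after SM30, with treated arrays all above controls on each. At 3 h after AS30 these 3 probes gave 0.32, 0.25 and 0.69, with groups that overlapped on each. At 22 h they gave -0.02, 0.02 and, from 2 pairs, 0.27. ARF6, which recycles membrane to ruffles, lay between -0.12 and 0.06.

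The comparison of the particles asks whether uptake genes responded differently to SM30 and AS30 at the same dose and recovery time of 3 h. The SM30 arrays and their controls lay on slides 1 and 2, and the 3 h AS30 arrays and their controls on slides 3 and 4. Particle cannot be told apart from slide and set of control cultures in this comparison. Of the 35 members 0 passed the threshold, as did 0.0142% of all genes, and 0 members had an unadjusted p under 0.05, beside 15.4% of all genes. Of the 62 probes, 1 had an unadjusted p under 0.05. The 95% interval of the difference lay within 1 log2 unit for 30 of the 35, beside 56.1% of all genes. By main probe, the members with the largest differences were DAB2, at -0.60 as SM30 minus AS30 (interval -1.38 to 0.18, and -0.26 without replicate B of the AS30 pair), and HIP1, at 0.53 (interval -0.14 to 1.20). The other HIP1 probes gave 0.39 and -0.73, so the direction depended on the probe. For RAB7A the difference was 0.18 (interval -0.62 to 0.97) and for SNX9 0.31 (interval -0.19 to 0.81). Between 22 h and 3 h after AS30, 3 members had an unadjusted p under 0.05, SCARB1, PTRF (0.50, adjusted p = 0.262) and SYNJ1, whose 22 h groups were not well above background, beside 18.1% of all genes. The interval of that difference lay within 1 log2 unit for 28 of 35 members and 54.3% of all genes.

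Some genes of the same routes outside the 38 passed the threshold, and they were taken from lists of 30 clathrin-route, 10 caveola, 42 endosome, 26 actin-driven uptake and 17 receptor genes. At 3 h 27, 10, 41, 26 and 11 of these were tested, and at 22 h 26 of the clathrin-route list. The calls numbered 10 after SM30, 2 at 3 h and 5 at 22 h after AS30, beside 7.67%, 2.62% and 3.84% of all genes. No list was tested as a set. After SM30, the clathrin-route list had 3 of 27 tested genes higher and 0 lower, with a list median of 0.02, while 4.24% of all genes were called higher and 3.42% lower. These were ITSN2, a scaffold of pits (1.25 ± 0.17, adjusted p = 0.00678), SH3KBP1, an adaptor in receptor uptake (1.17 ± 0.13, adjusted p = 0.00257), and SYNJ2, a relative of SYNJ1 (0.80 ± 0.17, adjusted p = 0.0261). All had treated arrays above controls. ITSN2 read 1771, 1787 and 1824 against 1010, 633 and 668, and SH3KBP1 read 6889, 6605 and 6470 against 3097, 2761 and 3004. The second SH3KBP1 probe gave 1.41 (adjusted p = 0.00266), and the other ITSN2 probes gave 0.84 (adjusted p = 0.0625) and 0.69 (adjusted p = 0.57). The other SYNJ2 probes gave 0.577 (adjusted p = 0.176) and, from a probe well above background on 6 of 18 arrays, 1.242 (adjusted p = 0.0306).

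Of the other lists after SM30, the caveola genes had 2 of 10 higher, EHD4 (0.79, adjusted p = 0.00704) and EHD1 (0.68, adjusted p = 0.0269), which remodel membrane at caveolae and endosomes. The endosome genes had 2 of 41 higher, RAB31 (1.06, adjusted p = 0.00756) and RAB11FIP1 (0.77, adjusted p = 0.0159), and 1 lower, ZFYVE9 (-0.50, adjusted p = 0.04). The second probes of EHD1 (0.835, adjusted p = 0.0537), RAB11FIP1 (0.703, adjusted p = 0.138) and ZFYVE9 (-0.431, adjusted p = 0.0733) had the same direction and did not pass. The actin-driven uptake genes had CYTH2 higher (0.80, adjusted p = 0.01), an exchange factor for ARF GTPases, and VAV3 lower (-1.48, adjusted p = 0.0203), an exchange factor for RAC, of 26. Among 11 receptors 0 passed, by limma, and 6 had an unadjusted p under 0.05, as did 25.5% of all genes. Of these 10 calls after SM30, 3, 1 and 2 held without replicate A, B or C of the SM30 pair, and SH3KBP1 alone held in all 9 fits that left out a pair. With slide as a fixed block 2 held, SH3KBP1 (1.22, adjusted p = 0.0296) and CYTH2 (0.80, adjusted p = 0.0413).

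RAB31, a GTPase of the trans-Golgi and endosomes, passed the threshold in all 3 exposures. It read 4635, 5025 and 4624 after SM30 against 2616, 2472 and 1821. RAB31 after AS30 read 4866, 4936 and 4412 at 3 h against 2529, 2247 and 2954, and 3869, 3215 and 4258 at 22 h against 1679, 1881 and 2256. No treated array overlapped with its controls, the AS30 ratios were 0.89 (adjusted p = 0.0309) and 0.96 (adjusted p = 0.0228), and its second probe passed in each exposure, with 0.69, 0.82 and 1.09. CYTH2 passed at 3 h after AS30 as well (0.87, adjusted p = 0.0184) and was 0.42 at 22 h (adjusted p = 0.101). Beyond these 2 genes, 0 of the listed genes passed at 3 h after AS30 by limma on their main probes. An unadjusted p under 0.05 was found for 6 of 27 clathrin-route, 2 of 10 caveola and 2 of 11 receptor genes, beside 25% of all genes. Of all genes 1.59% were called higher and 1.03% lower. SH3KBP1 gave 0.58 (adjusted p = 0.0523) there, with treated arrays all above controls, and its second probe passed (0.84, adjusted p = 0.034). The calls of RAB31 and CYTH2 at 3 h after AS30 were lost without replicate A or B of that pair. They were also lost with slide as a fixed block, where the ratios were 0.72 for RAB31 and 0.81 for CYTH2.

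At 22 h after AS30, CD68, a scavenger receptor of lysosomes, rose by 1.67 ± 0.25 on the log2 scale (adjusted p = 0.0198) and was the receptor called of 11. It read 3151, 1200 and 2658 against 613, 670 and 761, with replicate B nearest to the controls, and its 3 h ratios were 0.97 after both particles (adjusted p = 0.0532 after SM30 and 0.078 after AS30). The leukocyte marker CSF1R was at 2.01 at 22 h from 1 measured pair, with no control array well above background, and its part in the CD68 value was not tested. CAVIN3 (PRKCDBP on the array), a cavin, rose by 1.14 ± 0.18 (adjusted p = 0.0207), and its second probe by 0.82 (adjusted p = 0.0307). CAV3, the caveolin of muscle, fell by 1.05 on the log2 scale (adjusted p = 0.0422), from 937, 899 and 706 in the controls to 295, 653 and 348. RAB4B, which serves recycling, rose by 1.06 (adjusted p = 0.0264), and its second probe by 1.23 (adjusted p = 0.0276). Among the clathrin-route and actin-driven genes 0 of 26 in each list passed by limma, with 4 and 6 at an unadjusted p under 0.05 beside 23.7% of all genes. Of all genes 2.71% were called higher and 1.13% lower at 22 h. All 5 calls, RAB31 included, were lost without replicate A or C of that pair and with slide as a fixed block, where the ratios were for CD68 1.50 (adjusted p = 0.302), CAVIN3 0.88, CAV3 -0.80, RAB4B 0.81 and RAB31 0.74.

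**Figure D4:**
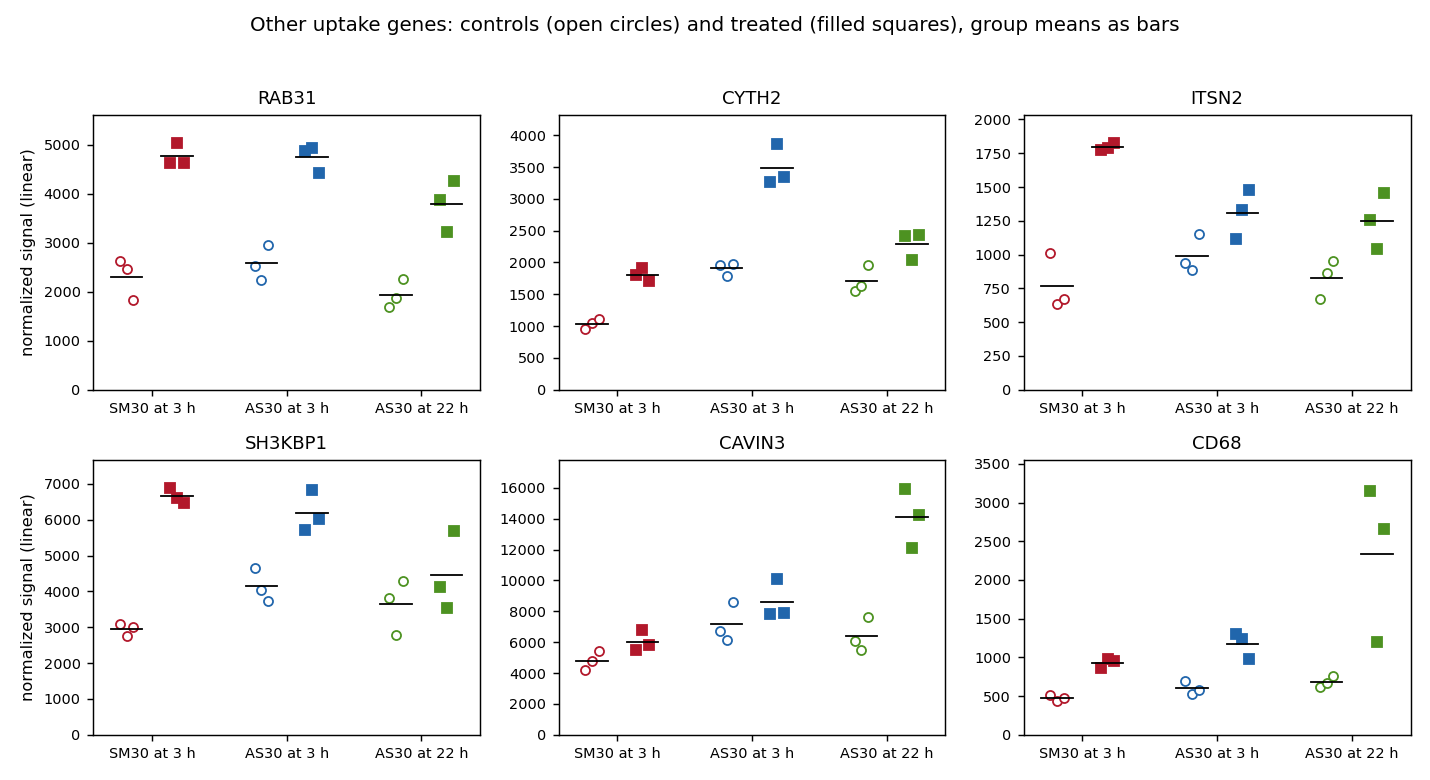
Normalized signal (linear scale, from 0) on each array for 6 uptake genes outside the 38 that passed the threshold in at least 1 exposure, with controls as open circles, treated cells as filled squares and group means as black bars. RAB31 is separate from its controls in all 3 exposures, and CD68 and CAVIN3 are furthest from theirs at 22 h after AS30.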

How the data were processed

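RNA of 18 A549 cultures was labelled with Cy3 and hybridised to one-colour Agilent arrays. The authors deposited a scanner file for each array, made with Feature Extraction 10.5.1.1 per the file headers, that holds spot intensities on a linear scale after the software's background correction, and a table of quantile-normalized intensities that served as an alternative. The deposited files give probe positions on build hg18.

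Control spots were dropped, log2 processed signals were quantile-normalized over the 18 arrays, spots flagged as not positive and significant or as outliers were left out, and replicate spots were averaged. Probes with over 33% missing values were removed, which kept 28665 probes of 21233 genes. The brightest probe stood for a gene. Each treated array was set against the control of its letter, as the methods name a corresponding control, and limma 3.58.1 in R 4.3.3 was fitted to the 9 ratios as 3 classes. The adjusted p throughout is limma's p-value after Benjamini-Hochberg adjustment across all kept probes. The script was tested on simulated data. Deviations of same-letter arrays correlated at -0.09 to 0.48 over 23030 probes, so the letters are not shown to pair the cultures. The precision is limited by 3 arrays per group.

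The members and gene lists were chosen with earlier results of these data known. Values in every array are given for members past the threshold, for the 3 members with the largest mean ratio in each exposure and for 1 lead member per role. Outside the 38, genes past the threshold are named, and 1 gene of the clathrin-route list is not reported here. Other normalizations, filters, blocks and the omission of each replicate pair were tried, and the leaving out, pairing and slide settings were also run for the genes named outside the 38 after their values were seen.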

Additional observations from a re-analysis of the deposited data

How the results depend on the processing

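The number of members called stayed at 0 in all 5 comparisons with scaling to the 75th percentile, no filter on missing values, outlier spots kept, the deposited table and slide as a fixed block (24935 probes fitted). Of all genes these settings called 1.33% to 8.34% after SM30. After AS30 they called 0.172% to 2.5% at 3 h and 0.0322% to 3.49% at 22 h. With no replicate block, that is without the paired letters, 1 member was called after SM30 (RAB7A) and 1 after AS30 at 22 h (SCARB1), and 0 in the other comparisons. Beside these calls stood 9.01% of all genes after SM30 and 5.27% at 22 h. Slide as a random block, whose consensus correlation was -0.08, gave 1 after SM30 (RAB7A), 5 after AS30 at 3 h (DNM2, RAC1 and RAB7A higher, PTRF and SCARB1 lower), 2 after AS30 at 22 h (SCARB1 higher, AP2B1 lower) and 1 between 22 h and 3 h (SCARB1). That fit called 11%, 14.3%, 7.25% and 1.21% of all genes in these comparisons, in the same order. Normexp background correction gave 1 after AS30 at 22 h (SCARB1), beside 4.46% of all genes. Probes well above background on all 18 arrays gave 1 after SM30 (SNX9) and 1 after AS30 at 22 h (SCARB1), beside 11.7% and 6.4%. Averaging the probes of a gene gave 1 after SM30 (SNX9), beside 6.59% of all genes. Leaving out a replicate gave 0 after SM30 and in both differences, 0 to 1 after AS30 at 3 h (AP2A1 lower without replicate C of that pair) and 0 to 1 after AS30 at 22 h (CAV1 lower without replicate B of that pair). The fits that called AP2A1 and CAV1 also called 11.2% and 4.49% of all genes. The causes were not tested. Over 80 values of named members and 1515 alternatives, 1494 kept their side of the threshold, 16 were called and 5 were no longer called, all 5 for the dimmer SNX9 probe after SM30, and a called value reversed in 0. Values that were not called changed sign in 82. Without the pairing all 17 calls of genes outside the 38 held. Over all genes, leaving out a pair gave 220 (without SM30 replicate B) to 2066 calls after SM30, from 1628. After AS30 it gave 55 (without replicate B of that pair) to 2367 (without C) at 3 h, from 554, and 2 (without A) to 1086 at 22 h, from 801. With 3 arrays per group the median SE of a member's ratio was 0.15 log2 units.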
